A study of Mus musculus with 4 samples.

Results

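Bone-marrow-derived macrophages given lipopolysaccharide (LPS) alone were compared with untreated macrophages of the same preparation type, on 1 Affymetrix array for each. The members are the 12203 genes, of 19938 with a probe of 1 gene symbol, whose strongest signal on the 4 arrays of the series reached log2 6.47, the median of all deposited values. The comparison uses 2 of the 4 arrays. The other 2 carry RNA of cells that received LPS together with the caspase inhibitor zVAD, without or with Nec-1, which inhibits the kinase RIPK1, and their values are set beside those of LPS alone for a few genes only.

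All cells came from the marrow of female BALB/c mice (BalbC in the labels) and had been grown for 7 days with supernatant of L929 cells, which supplies the growth factor M-CSF, and the control cells received it too. LPS was given at 10 ng/ml, zVAD at 50 µM and Nec-1 at 30 µM, and 250 ng of total RNA was labelled. The ages of the mice, their number, any pooling and the treatment times are not stated in the labels. Because each condition is a single array, no difference below could be checked against replicates, no test was made, and 2-fold (1 on the log2 scale) is a rule of size. A probe reading below log2 6.47 was not taken to separate signal from background. A fold change printed for a gene from or to such a reading is counted from that level and written "at least". Counts and medians of gene groups use the differences as read, except where they are said to be counted from that level.

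LPS is a component of the outer membrane of Gram-negative bacteria that macrophages sense through TLR4 with its partners MD-2 (Ly96) and CD14. TLR4 signals through the adaptor MyD88 to NF-kB and MAP kinases, which switch on cytokine and chemokine genes, and through the adaptor TRIF (Ticam1) to IRF3, which switches on interferon beta. Secreted interferon then acts back on the cells through its receptor and JAK kinases and raises a further layer of antiviral and antimicrobial genes. Macrophages grown in M-CSF divide, and LPS is known to stop their division.

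Of the 12203 genes, 1005 (8.24%) were at least 2-fold higher with LPS and 879 (7.20%) at least 2-fold lower, while 8342 (68.4%) lay under 1.5-fold in either direction. On the deposited scale the counts were close to each other at 2-fold. They were 1130 higher and 698 lower with centred arrays, and 1091 and 711 with cyclic loess. As deposited, they lay far apart at larger sizes. At 8-fold or more, 165 genes (1.35%) were higher and 7 (0.0574%) lower, and at 32-fold or more 49 were higher and 0 lower. Counted from the background level, 965 genes (7.91%) were higher and 840 (6.88%) lower by at least 2-fold, and 152 against 7 by at least 8-fold. The median difference was -0.12 over the genes past the filter and -0.10 over all 19938 genes, and these are the values against which the medians of the gene groups below, taken over all measured members, are to be read. Group counts below are also given out of all measured members, filtered or not. They are to be read mainly against the 8.24% higher and 7.20% lower of the genes past the filter. Of the 1573 measured genes in the groups, 1435 passed it. The same 1005 and 879 genes are smaller shares of all 19938, of which 7735 did not pass. The calls were spread unevenly over signal. With the genes ranked by mean signal and cut into 5 equal bins, 72 were higher and 54 lower in the weakest bin, 222 and 278 in the middle one, and 289 and 131 in the strongest. Just past the 2-fold line stood Ube2r2 at 1.0048 and Naa50 at -1.0003, and just short of it Atg4a at 0.99997 and Ppm1d at -0.9997. At the filter, Msx3 was just inside with a strongest signal of 6.4717 and Crhr2 just outside with 6.47099. All 10 macrophage markers checked, among them Csf1r, Adgre1, Cd68, Lyz2 and Spi1, read above the background level on both arrays, at log2 10.2 or more.

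**Figure D1:**
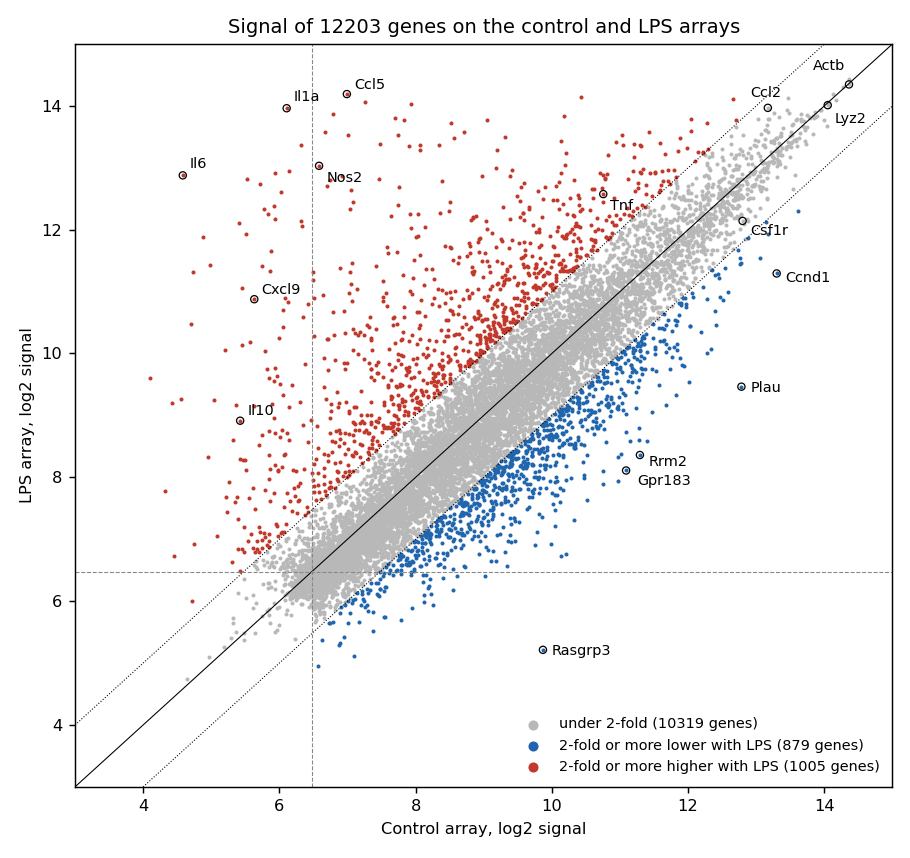
Signal of each gene past the filter on the LPS array (vertical axis, log2) against the control array (horizontal axis, log2). Dotted lines mark 2-fold differences, dashed lines the background level of log2 6.47, and circled genes are named. The 1005 higher genes reach much farther from the diagonal than the 879 lower ones, and many of the former start near or under the background level on the control array.

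The 70 gene groups that were counted held 1573 measured genes, and 661 of the higher genes and 663 of the lower ones belonged to none of them.

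The receptor complex for LPS itself differed little between the arrays. Tlr4 read 9.99 in control and 9.51 with LPS, Ly96 11.87 in control and 12.52 with LPS and Cd14 13.07 in control and 13.55 with LPS, all under 2-fold. Of the 21 measured genes of the TLR4 route, 7 were at least 2-fold higher and 0 lower, and these were the adaptor Myd88 and proteins that act after it or beside it. Myd88 read 11.1 on the control array and 12.36 on the LPS array, 2.39-fold higher. Irak2, a kinase-like partner of Myd88, read 10.32 in control and 12.22 with LPS, and Irak3, the family member that restrains the pathway, 10.21 in control and 11.91 with LPS. Peli1, a ubiquitin ligase of this route, was the most different of the 21, at 10.1 in control and 12.34 with LPS (4.71-fold higher). The kinases Tbk1 and Ikbke, which phosphorylate IRF3, were 2.70-fold higher and 2.11-fold higher, and Traf6 2.01-fold higher.

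Among 15 other Toll-like receptors and their helpers, 5 were higher and 1 lower. Tlr3, the receptor for double-stranded RNA, read 8.24 on the control array and 11.37 on the LPS array and was 8.74-fold higher. Tlr1, Tlr6 and Tlr2, which sense bacterial lipoproteins, were 3.77-fold higher, 3.71-fold higher and 2.21-fold higher, and Tlr9, a receptor for bacterial DNA, was 3.62-fold higher. The lower gene was Cnpy3, a chaperone of these receptors, at 10.37 in control and 9.3 with LPS. It lay under 2-fold when the arrays were centred or scaled by cyclic loess, whereas 3 of the 15 were lower after quantile normalization. Sensors in the cytosol stood farther apart from the untreated cells, with 15 of 22 higher, 0 lower and a median of 1.8. Ifih1 and Ddx58, which encode the RNA sensors MDA5 and RIG-I, read 8.98 in control and 12.87 with LPS and 10.14 in control and 12.91 with LPS, which is 14.8-fold higher and 6.84-fold higher. Zbp1, a sensor of Z-form nucleic acids, went from 8.5 to 12.45, and Nod1, a sensor of cell wall fragments, from 6.65 to 9.92. Downstream adaptors of the nucleic acid sensors were at similar readings on both arrays, Mavs at 9.98 in control and 9.85 with LPS and Sting1 at 10.47 in control and 10.21 with LPS.

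In the NF-kB group, 19 of 25 measured genes were higher by at least 2-fold and 0 lower, with a median of 1.57. The subunits differed unequally. Nfkb2 and Rel were 5.45-fold higher and 2.82-fold higher, Relb was 2.05-fold higher, and Rela, the subunit that carries most of the early response, read 10.24 in control and 10.86 with LPS, under 2-fold. Most inhibitors that end the response were higher, Nfkbid at 8.32 in control and 8.36 with LPS being an exception. Nfkbia, which encodes the inhibitor IkB-alpha, read 10.83 on the control array and 13.2 on the LPS array (5.20-fold higher). Tnfaip3, which encodes the ubiquitin-editing enzyme A20, read 8.95 in control and 11.87 with LPS (7.59-fold higher), Nfkbie 7.84 in control and 10.58 with LPS and Nfkbiz 7.57 in control and 10.98 with LPS. Traf1, an adaptor of TNF receptors, was the most different of the group, at 6.89 in control and 11.38 with LPS (22.5-fold higher), and Birc3, a ubiquitin ligase that protects cells from TNF-driven death, was 5.07-fold higher. The upstream kinases Ikbkb and Map3k14 read 9.09 in control and 9.3 with LPS and 7.26 in control and 7.18 with LPS.

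The promoters of Nfkbia and Tnfaip3 are shown because both genes are standard targets of NF-kB and both carry its motif close to the start site. Each stretch is RefSeq sequence of GRCm38.p6 from 250 bases before to 50 bases after a gene's start, in the direction of transcription, and capitals mark matches on either strand to GGANTTTCC (an NF-kB element) or to GAAANNGAA (an interferon response element).
Nfkbia, chr12:55492598-55492897, minus strand: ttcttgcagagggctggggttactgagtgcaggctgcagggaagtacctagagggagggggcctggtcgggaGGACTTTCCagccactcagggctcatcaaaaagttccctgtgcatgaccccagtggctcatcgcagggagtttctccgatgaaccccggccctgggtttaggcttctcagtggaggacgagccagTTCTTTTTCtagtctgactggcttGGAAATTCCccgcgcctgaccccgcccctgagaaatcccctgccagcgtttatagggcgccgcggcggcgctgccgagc
Tnfaip3, chr10:19015361-19015660, minus strand: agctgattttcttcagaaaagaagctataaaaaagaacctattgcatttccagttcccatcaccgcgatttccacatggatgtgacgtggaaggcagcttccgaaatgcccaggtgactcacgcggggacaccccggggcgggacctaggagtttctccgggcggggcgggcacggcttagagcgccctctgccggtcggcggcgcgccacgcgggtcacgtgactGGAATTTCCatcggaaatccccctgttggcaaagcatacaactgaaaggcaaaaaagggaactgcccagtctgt
In the Nfkbia stretch the NF-kB matches begin at -178 and -29 from the start and an interferon response match at -53, and in the Tnfaip3 stretch the NF-kB match begins at -24. Another annotated start of Tnfaip3 held no match to either. A match is a run of letters and says nothing of binding.

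Immediate early transcription factors were less uniform, with 5 of 24 higher and 1 lower. Csrnp1, Nr4a3, Junb, Atf3 and Ier3 were higher, Junb reading 8.11 in control and 9.99 with LPS and Atf3, a repressor of inflammatory genes, 11.85 in control and 13.27 with LPS. The classic first responders Fos and Egr1 read 8.09 in control and 8.41 with LPS and 7.78 in control and 7.13 with LPS, under 2-fold. The gene that was lower was Myc, a driver of growth and ribosome production, at 11.63 in control and 10.2 with LPS (2.70-fold lower). The MAP kinase phosphatases went in both directions. Dusp1, which switches off p38 and JNK, read 9.55 on the control array and 12.69 on the LPS array (8.83-fold higher), Dusp2 6.97 in control and 9.75 with LPS and Dusp16 8.97 in control and 10.52 with LPS. Dusp6, which acts on ERK, read 12.34 on the control array and 10.07 on the LPS array (4.83-fold lower), and Dusp3 and Dusp7 were 2.83-fold lower and 2.16-fold lower. In all 3 of 13 were higher and 3 lower.

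Transcripts for suppressors of cytokine signals were also higher, in 7 of 16 measured cases, with 0 lower. Socs3, which blocks signalling of the IL-6 family, read 7.08 on the control array and 12.45 on the LPS array (41.2-fold higher), and Socs1, which blocks interferon signalling, 7.7 in control and 10.17 with LPS (5.54-fold higher). Another probe of Socs3 differed less, at 6.69 in control and 9.85 with LPS. Usp18, which removes the ubiquitin-like protein ISG15 and damps the interferon receptor, read 10.18 in control and 13.84 with LPS. Of the genes that control the decay of messenger RNA, 6 of 18 were higher and 2 lower (1 with centred arrays or cyclic loess). Zfp36 (tristetraprolin), which shortens the life of cytokine transcripts such as that of Tnf, read 9.52 in control and 12.2 with LPS (6.40-fold higher), and the ribonuclease Zc3h12a (regnase-1) 7.36 in control and 10.05 with LPS (6.47-fold higher). The relatives of Zfp36 went the other way, Zfp36l2 at 11.27 in control and 9.46 with LPS (3.51-fold lower) and Zfp36l1 at 9.61 in control and 8.59 with LPS.

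Among the secreted mediators the IL-1 family had 9 of 16 measured members higher, 0 lower, and a median of 1.60. Counted from the background level, 8 were higher and the median was 1.10. Beside Il1a and Il1b these included Il18 (7.04 in control and 11.13 with LPS, 16.9-fold higher), Il1f6 and Il1f9, which encode forms of IL-36, and Il33 (5.38 in control and 7.68 with LPS). The antagonists were higher in the same comparison, Il1rn at 10.13 in control and 13.44 with LPS (9.90-fold higher) and Il18bp at 7.95 in control and 9.9 with LPS. Sigirr, a receptor that restrains IL-1 signals, read 7.88 in control and 6.99 with LPS, under 2-fold. Of 22 other interleukins 8 were higher. Il12b, the shared chain of IL-12 and IL-23, read 5.94 on the control array and 12.17 on the LPS array (at least 52.1-fold higher), while the partner chains differed. Il12a was 2.38-fold higher, at 6.51 in control and 7.76 with LPS, and Il23a read below the background level on both arrays. Il27 and its partner Ebi3 read 7.6 in control and 11.62 with LPS and 9.71 in control and 11.58 with LPS. Il15, a growth factor for natural killer cells, read 7.73 in control and 11.65 with LPS (15.1-fold higher), and Il10, the main interleukin that quiets macrophages, 5.42 in control and 8.91 with LPS (at least 5.44-fold higher).

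Ligands of the TNF superfamily were higher in 6 of 14 cases. Tnf itself read 10.75 on the control array and 12.57 on the LPS array, 3.53-fold higher from an already high reading. The relatives Tnfsf10, Tnfsf15 and Tnfsf8 started near the background level and ended far above it. Tnfsf10, which encodes the death ligand TRAIL, read 6.34 in control and 12.07 with LPS (at least 48.3-fold higher), Tnfsf15 6.64 in control and 10.95 with LPS (19.8-fold higher) and Tnfsf8 6.42 in control and 10.79 with LPS (at least 20.0-fold higher). Fasl and Lta stayed below the level on both arrays.

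CC chemokines started from very different readings in untreated cells. Ccl2, Ccl3, Ccl6 and Ccl9 read 12.93 (Ccl6) to 13.46 (Ccl3) in control and lay under 2-fold, with Ccl2 at 13.17 in control and 13.97 with LPS and Ccl3 at 13.46 in control and 14.12 with LPS. Ccl17 and Ccl22, ligands of CCR4, read 6.02 in control and 12.61 with LPS (at least 70.3-fold higher) and 6.32 in control and 12.14 with LPS (at least 51.0-fold higher), and Ccl8 and Ccl12 5.04 in control and 9.24 with LPS and 8.0 in control and 11.88 with LPS. In all, 7 of 17 were higher and 0 lower. Of 16 CXC chemokines 9 were higher and 1 lower. The ligands of CXCR3, which attract T cells, were Cxcl9 at 5.63 in control and 10.88 with LPS (at least 21.2-fold higher), Cxcl10 and Cxcl11 (6.66 in control and 13.58 with LPS). The neutrophil attractants Cxcl1, Cxcl2 and Cxcl3 were 3.08-fold higher, 5.54-fold higher and at least 15.5-fold higher. Cxcl14 was the lower one, at 11.64 in control and 10.22 with LPS (2.68-fold lower).

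Of 12 colony stimulating factors and their receptors 4 were higher and 0 lower. Csf3r, the receptor for G-CSF, read 8.26 in control and 10.89 with LPS (6.19-fold higher), and Csf2rb, a shared chain of the GM-CSF receptor, 10.4 in control and 12.52 with LPS (4.32-fold higher). Csf2rb and its near copy Csf2rb2 may share signal. Csf1, which encodes M-CSF, read 6.35 in control and 8.84 with LPS (at least 5.17-fold higher), and its receptor Csf1r 12.8 in control and 12.14 with LPS, under 2-fold. In the prostaglandin and leukotriene pathway 4 of 24 genes were higher and 3 lower, on different branches. Ptges, the enzyme that follows Ptgs2 in making prostaglandin E2, read 7.03 on the control array and 12.33 on the LPS array (39.3-fold higher). On the leukotriene branch Alox5 read 9.17 in control and 8.11 with LPS (2.10-fold lower) and Ltc4s 8.85 in control and 7.58 with LPS (2.42-fold lower), and Hpgds, which makes prostaglandin D2, 11.35 in control and 10.15 with LPS (2.31-fold lower).

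Proteases and the plasminogen system had 10 of 27 genes higher and 2 lower (8 and 1 counted from the background level). Mmp13 and Mmp14, a collagenase and a membrane-bound protease that activates others, read 9.04 in control and 13.78 with LPS (26.6-fold higher) and 7.64 in control and 12.22 with LPS (23.9-fold higher). Serpinb2, an inhibitor of urokinase, read 5.92 in control and 9.55 with LPS (at least 8.48-fold higher). Urokinase itself, Plau, read 12.78 on the control array and 9.46 on the LPS array (9.98-fold lower), and was among the 7 genes at least 8-fold lower. Complement had 3 of 19 genes higher. Cfb (factor B), which forms the convertase of the alternative pathway, read 5.84 in control and 12.25 with LPS (at least 54.9-fold higher), while C1qa, C1qb and C1qc, which start the classical pathway, lay under 2-fold, C1qb at 12.96 in control and 12.92 with LPS.

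Interferon beta itself was weakly detected. Ifnb1 read 5.42 on the control array and 6.48 on the LPS array, that is, from below the background level to a value at it, and none of the measured interferon alpha genes was higher by 2-fold. The genes that respond to interferon differed far more. Of 41 antiviral genes 38 were at least 2-fold higher and 0 lower, with a median of 2.44, the members under 2-fold being Ifitm2, Ifitm3 and Ifi27l2a, with Ifitm3 at 13.48 in control and 13.89 with LPS. Ifit1, which binds foreign RNA caps, read 7.47 on the control array and 13.38 on the LPS array (60.03-fold higher). Mx1 read 6.74 in control and 12.81 with LPS (67.3-fold higher), and Rsad2 (viperin) 7.93 in control and 14.03 with LPS (68.5-fold higher). Further down the group, Ddx60 read 7.06 in control and 11.46 with LPS, Isg20, a nuclease, 8.57 in control and 13.48 with LPS, and Oasl1 9.31 in control and 13.5 with LPS. The Oas genes are near copies of each other, as are the Gbp, Schlafen and Trim30 genes named next, and the split of signal within each family is uncertain.

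Of 11 guanylate-binding proteins and immunity-related GTPases, which attack vacuoles that hold microbes, 10 were higher by 2-fold (9 counted from the background level) with a median of 5.67, or 4.95 from that level. Gbp5 read 5.52 in control and 12.82 with LPS (at least 81.4-fold higher), Gbp3 6.14 in control and 12.94 with LPS (at least 88.7-fold higher), Iigp1 5.41 in control and 12.1 with LPS (at least 49.6-fold higher) and Irgm1 9.48 in control and 12.55 with LPS (8.37-fold higher). All 8 Schlafen genes were higher, from Slfn3 at 9.08 in control and 10.21 with LPS (2.18-fold higher) to Slfn4 at 6.69 in control and 12.7 with LPS (64.4-fold higher). TRIM ubiquitin ligases did not move as a group, with 10 of 34 higher (9 counted from the background level) and 3 lower. Their median of -0.02 turned positive under each of the 3 other scalings tried. Trim30d read 4.98 in control and 11.42 with LPS (at least 31.0-fold higher) and Trim21, an intracellular antibody receptor, 9.12 in control and 11.94 with LPS (7.06-fold higher), while Trim28, a corepressor of zinc-finger proteins, read 10.6 in control and 9.31 with LPS (2.45-fold lower) and Trim37 9.81 in control and 8.11 with LPS (3.25-fold lower). Among the transducers, 9 of 17 IRF, STAT and JAK genes were higher and 0 lower (8 counted from the background level). Irf7, the factor that amplifies interferon production, read 9.19 on the control array and 13.28 on the LPS array (17.1-fold higher), Jak2 8.89 in control and 12.23 with LPS (10.1-fold higher), Stat2 9.53 in control and 12.46 with LPS and Irf1 8.63 in control and 11.46 with LPS. Another probe of Irf1 hardly differed, at 7.07 in control and 7.21 with LPS. Irf3, which is switched on by phosphorylation, read 8.86 in control and 8.57 with LPS.

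Promoters of 3 of these genes are shown for their interferon response and NF-kB letters, marked in capitals as above. Cxcl10 and Gbp5 carry both motifs, and Ifit1 has 3 matches to the interferon response element, of which the first pair overlaps.
Ifit1, chr19:34640639-34640938, plus strand: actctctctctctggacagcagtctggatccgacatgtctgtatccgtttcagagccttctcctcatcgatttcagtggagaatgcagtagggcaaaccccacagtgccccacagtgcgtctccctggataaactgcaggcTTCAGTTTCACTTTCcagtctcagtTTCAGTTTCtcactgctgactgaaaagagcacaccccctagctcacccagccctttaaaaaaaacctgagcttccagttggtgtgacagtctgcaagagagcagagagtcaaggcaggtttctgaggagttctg
Cxcl10, chr5:92348840-92349139, minus strand: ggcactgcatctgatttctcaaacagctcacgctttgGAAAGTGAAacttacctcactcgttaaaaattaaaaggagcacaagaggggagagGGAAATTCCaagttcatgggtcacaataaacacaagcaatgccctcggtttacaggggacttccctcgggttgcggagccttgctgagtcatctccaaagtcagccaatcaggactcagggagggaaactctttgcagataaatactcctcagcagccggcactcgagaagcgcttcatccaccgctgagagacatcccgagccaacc
Gbp5, chr3:142496684-142496983, plus strand: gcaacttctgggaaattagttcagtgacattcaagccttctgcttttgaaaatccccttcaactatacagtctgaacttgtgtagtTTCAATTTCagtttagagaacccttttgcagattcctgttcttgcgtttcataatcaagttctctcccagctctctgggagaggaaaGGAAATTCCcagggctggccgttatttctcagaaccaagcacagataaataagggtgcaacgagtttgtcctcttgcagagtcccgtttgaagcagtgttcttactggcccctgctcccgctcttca
The Ifit1 matches begin at -109, -103 and -84. In Cxcl10, which read 6.78 in control and 13.86 with LPS, the interferon response match begins at -213 and the NF-kB match at -158. In Gbp5 they begin at -164 and -77.

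A promoter was available for 9759 of the 12203 genes, and a gene with several annotated starts was counted if any of its stretches held the motif. The interferon response element was found in 8.48% of these genes, in 16.9% of the 807 at least 2-fold higher, in 28.9% of the 128 at least 8-fold higher and in 6.70% of the 731 at least 2-fold lower. The NF-kB element was found in 1.67% of all, in 4.34% of those at least 2-fold higher, in 8.59% of those at least 8-fold higher and in 0.958% of those at least 2-fold lower. Within groups, 10 of 30 antiviral genes and 5 of 5 GTPase genes with a promoter held the interferon response element, and 4 of 21 NF-kB genes and 4 of 9 CXC chemokines the NF-kB element. The interferon response letters also occurred in 8 of 26 cytosolic ribosomal protein genes, none of which differed by 2-fold. Promoters of the genes at least 8-fold higher were less rich in G and C, with a median of 50.2% against 60.7% over all, and the part of base composition in these shares was not tested.

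**Figure D2:**
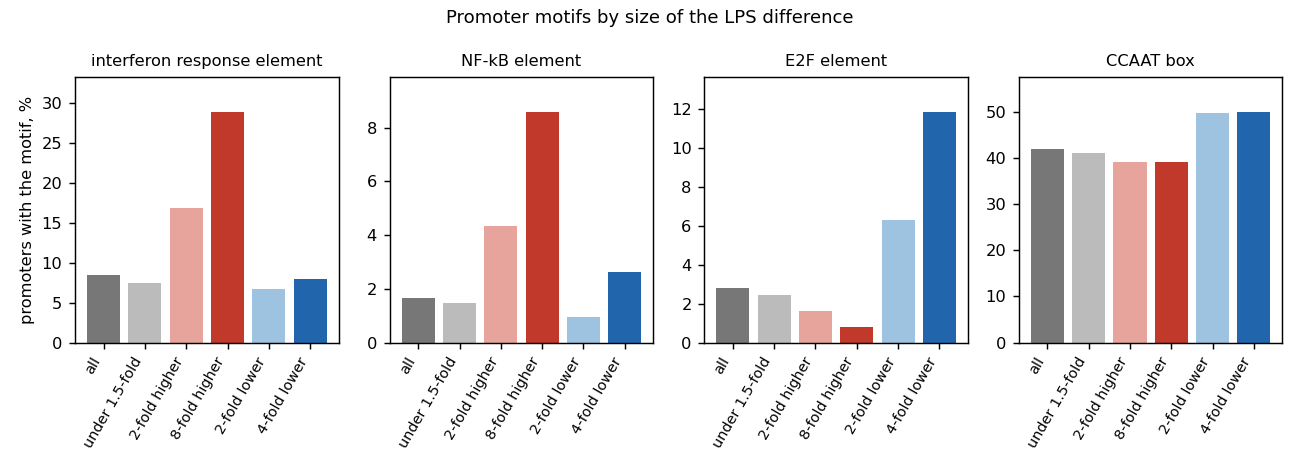
Percentage of genes (vertical axes, each with its own scale from 0) whose promoter holds an interferon response element, an NF-kB element, an E2F element or a CCAAT box, for all genes with a promoter and for genes grouped by the size and direction of the LPS difference. The first 2 motifs were most frequent among the 128 genes at least 8-fold higher (28.9% and 8.59%) and the E2F element among the 76 at least 4-fold lower (11.8%).

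Genes that load peptides on MHC class I were higher in 10 of 17 cases, with 0 lower and a median of 1.47. Nlrc5, the transcription factor that drives the class I genes, read 8.51 in control and 11.72 with LPS (9.28-fold higher), the peptide transporters Tap1 and Tap2 were 6.31-fold higher and 4.31-fold higher, and the immunoproteasome subunits Psmb10, Psmb9 and Psmb8 were 4.09-fold higher, 3.10-fold higher and 2.41-fold higher. The subunits they replace, Psmb7, Psmb6 and Psmb5, read 11.23 in control and 11.47 with LPS, 12 in control and 12.48 with LPS and 13.06 in control and 12.87 with LPS, and of 32 constitutive proteasome genes 1 was higher (Psma6, 2.01-fold higher) and 0 lower. In MHC class II 2 of 14 genes were higher, and 5 when the arrays were centred or scaled by cyclic loess. H2-Ab1 read 8.11 in control and 9.57 with LPS (2.76-fold higher) and Cd74 8.95 in control and 10.29 with LPS (2.54-fold higher), and Ciita, the activator of class II genes, stayed below the background level on both arrays.

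Surface molecules through which macrophages instruct lymphocytes were higher in 15 of 24 cases (14 counted from the background level). None was lower, and the median was 1.63. Cd40, which receives help from T cells, read 8.72 on the control array and 13.57 on the LPS array (28.9-fold higher). Cd86 and Cd80 bind the same receptors on T cells and differed unequally, Cd86 at 8.15 in control and 11.37 with LPS (9.32-fold higher) and Cd80 at 9.22 in control and 9.75 with LPS. Cd274, which encodes the inhibitory ligand PD-L1, read 8.06 in control and 13.29 with LPS (37.5-fold higher), and Slamf7 7.05 in control and 12.65 with LPS (48.4-fold higher). The adhesion molecules Icam1 and Vcam1 were 4.75-fold higher and 5.27-fold higher.

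**Figure D3:**
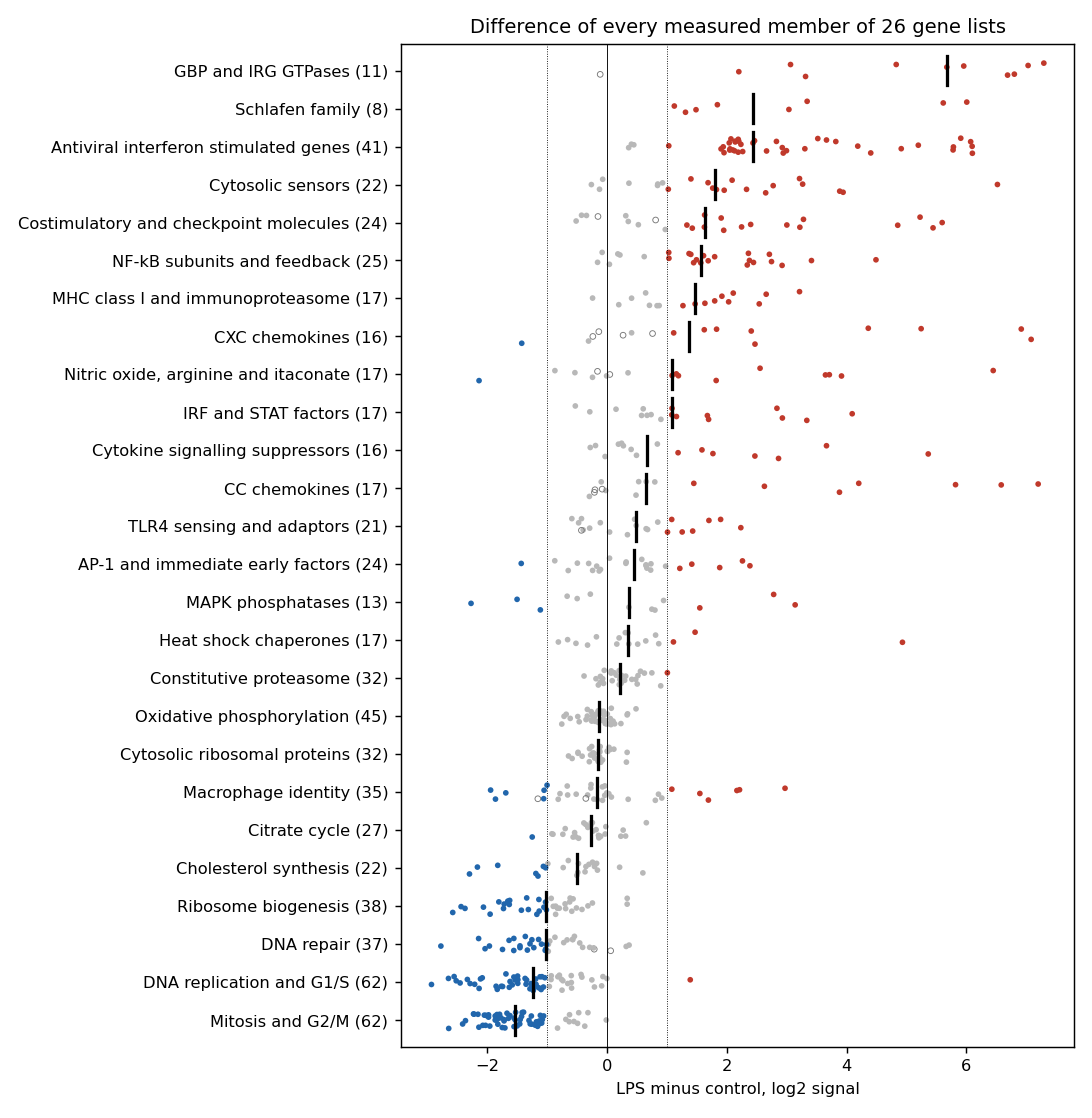
Difference between the LPS and control arrays (horizontal axis, log2) for every measured member of 26 gene groups, with the number of measured members in parentheses. Red and blue points are at least 2-fold higher or lower, grey points lie between, open points did not pass the filter on low signal, and black bars are medians, which run from 5.67 for the GTPases to -1.54 for mitosis.

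Around nitric oxide, 9 of 17 genes were higher (8 counted from the background level) and 1 lower. Nos2, the inducible nitric oxide synthase, read 6.58 on the control array and 13.03 on the LPS array (87.4-fold higher). Slc7a2, the arginine importer CAT2, read 8.36 in control and 12.27 with LPS (15.1-fold higher), and Gch1, the first enzyme of tetrahydrobiopterin synthesis, 8.24 in control and 10.8 with LPS (5.88-fold higher). Both arginases were higher, Arg2 at 7.52 in control and 11.17 with LPS (12.5-fold higher) and Arg1 at 6.74 in control and 7.93 with LPS (2.29-fold higher). Acod1, which makes itaconate, read 10.42 in control and 14.14 with LPS (13.1-fold higher). Srm, which makes the polyamine spermidine, read 11.93 in control and 9.8 with LPS (4.40-fold lower) and Odc1, the enzyme before it, 9.5 in control and 9.5 with LPS. Of 14 genes of the NADPH oxidases and of superoxide removal 2 were higher. Nox1, a catalytic subunit known mainly from other tissues, read 6.03 in control and 8.76 with LPS (at least 4.90-fold higher) and Sod2, the mitochondrial superoxide dismutase, was 3.36-fold higher, while Cybb, the catalytic subunit of phagocytes, lay under 2-fold at 13.02 in control and 13.79 with LPS.

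Glycolytic enzymes did not move together. Of 28 genes 5 were higher and 2 lower, with a median of -0.07 that turned positive when the arrays were centred. Pfkfb3, which makes the activator of phosphofructokinase, read 8.76 in control and 11.58 with LPS (7.07-fold higher), whereas Ldha read 13.95 in control and 13.93 with LPS and Pgk1 13.31 in control and 13.32 with LPS. Slc2a1, the glucose transporter GLUT1, read 12.52 in control and 13.12 with LPS, and Slc2a3 (GLUT3) 8.81 in control and 7.27 with LPS (2.91-fold lower). Of 27 genes of the citrate cycle 1 passed 2-fold, the cytosolic isocitrate dehydrogenase Idh1, at 11.86 in control and 10.61 with LPS (2.38-fold lower), and 3 did after quantile normalization. None of 45 genes of oxidative phosphorylation did, their differences running from -0.76 to 0.48.

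Transcripts for lipid synthesis were lower in part. In cholesterol synthesis 7 of 22 genes were lower and 0 higher, with a median of -0.50. Sqle, which makes squalene epoxide, read 10.28 on the control array and 7.98 on the LPS array (4.92-fold lower), the cholesterol carrier Stard4 9.45 in control and 7.29 with LPS (4.48-fold lower) and Dhcr7, the last enzyme, 9.06 in control and 7.24 with LPS (3.54-fold lower). The early enzyme Hmgcs1 and the regulator Srebf2 lay under 2-fold, at 10.22 in control and 10.01 with LPS and 10.31 in control and 10.07 with LPS. In the fatty acid group 7 of 31 were lower and 3 higher. Elovl6, which lengthens palmitate, read 9.76 in control and 6.91 with LPS (7.21-fold lower), Fasn, the fatty acid synthase, 10.08 in control and 7.71 with LPS (5.18-fold lower), Scd2, a desaturase, 12.28 in control and 10.01 with LPS (4.82-fold lower), and Pparg, a lipid-sensing nuclear receptor, 9.77 in control and 8.0 with LPS (3.40-fold lower). Fabp3, a fatty acid carrier, was the most different in the other direction, at 7.16 in control and 10.29 with LPS (8.78-fold higher).

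Iron genes were higher in 6 of 18 cases (5 counted from the background level) and lower in 3. Slc40a1 (ferroportin), which lets iron out of the cell, read 10.47 on the control array and 8.04 on the LPS array (5.40-fold lower), and Tfrc, the transferrin receptor, 11.18 in control and 9.76 with LPS (2.66-fold lower). Slc11a2, an iron importer of endosomes, read 8.86 in control and 11.34 with LPS (5.59-fold higher), and Lcn2, which captures bacterial iron carriers, 9.38 in control and 12.86 with LPS (11.2-fold higher). Cp (ceruloplasmin), which oxidises iron, read 5.78 in control and 12.33 with LPS (at least 58.0-fold higher). The ferritin chains Fth1 and Ftl1 read 14.13 in control and 14.2 with LPS and 13.89 in control and 13.83 with LPS. Of 23 NRF2 targets and metallothioneins, 1 was higher and 1 lower. Slc7a11, the cystine importer, read 7.03 in control and 11.32 with LPS (19.6-fold higher), and Gclc, a subunit of the enzyme that uses the cysteine for glutathione, 10.73 in control and 9.21 with LPS (2.85-fold lower). Transporters divided 5 higher to 6 lower of 25. Slc28a2, a nucleoside importer, read 8.03 in control and 12.25 with LPS (18.6-fold higher), while the amino acid importers Slc1a5, Slc38a2 and Slc7a5 were 3.59-fold lower, 3.30-fold lower and 2.51-fold lower.

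Genes of cell division were lower with LPS. Of 62 genes of DNA replication 42 were at least 2-fold lower and 1 higher, with a median of -1.23, and of 62 genes of mitosis 52 were lower and 0 higher, with a median of -1.54. Rrm2, the subunit that limits deoxynucleotide production, read 11.29 on the control array and 8.36 on the LPS array (7.63-fold lower). The helicase genes Mcm2 and Mcm7 read 11.14 in control and 8.59 with LPS (5.87-fold lower) and 10.97 in control and 8.32 with LPS (6.27-fold lower). In mitosis, Anln, which builds the contractile ring, read 10.75 in control and 8.11 with LPS (6.25-fold lower), and Cdk1 11.81 in control and 10.54 with LPS (2.40-fold lower). Most of these transcripts were lower and still well above background. Mki67, the proliferation marker, read 11.97 in control and 10.79 with LPS (2.27-fold lower), and Pcna, the replication clamp, 12.95 in control and 12.51 with LPS, under 2-fold. Dck, which salvages deoxycytidine, was the gene that was higher, at 9.88 in control and 11.27 with LPS (2.62-fold higher). In bulk RNA, fewer cells of a kind and less RNA per cell cannot be told apart.

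Of 19 cyclins that open the cycle and inhibitors of their kinases 3 were higher and 5 lower. Ccnd1 read 13.3 on the control array and 11.29 on the LPS array (4.02-fold lower), Ccnd2 10.38 in control and 12.06 with LPS (3.22-fold higher), and Ccnd3 10.16 in control and 10.08 with LPS. Of the inhibitors, Cdkn2c read 10.33 in control and 8.53 with LPS (3.49-fold lower) and Cdkn1b 9.43 in control and 10.37 with LPS, under 2-fold. DNA repair had 20 of 37 genes lower and 0 higher, with a median of -1.02. Counted from the background level, 18 were lower and the median was -0.98. Neil3, a DNA glycosylase, read 9.35 in control and 6.57 with LPS (6.85-fold lower), and Chek1, a kinase of the replication checkpoint, 9.67 in control and 7.52 with LPS (4.42-fold lower). Ribosome assembly genes were lower as well, in 20 of 38 cases with 0 higher and a median of -1.02. Dkc1, which modifies ribosomal RNA, read 10.05 on the control array and 7.47 on the LPS array (5.97-fold lower), Nop58 10.05 in control and 8.25 with LPS (3.50-fold lower) and Polr1b, a subunit of RNA polymerase I, 9.35 in control and 7.62 with LPS (3.32-fold lower). Both abundant nucleolar proteins lay under 2-fold, Npm1 at 11.12 in control and 11.46 with LPS and Ncl at 11.91 in control and 11.49 with LPS. The proteins of the cytosolic ribosome differed little, with 0 of 32 at 2-fold and a median of -0.15, and of 53 mitochondrial ribosomal proteins 3 were lower, or 1 with centred arrays.

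The promoter of Mcm5, a subunit of the same helicase at 11.07 in control and 9.32 with LPS (3.35-fold lower), is shown because its E2F letters, TTTNGCGC searched on both strands, occur as a pair of overlapping matches on opposite strands, beginning at -153 and -149 and marked in capitals.
Mcm5, chr8:75109259-75109558, plus strand: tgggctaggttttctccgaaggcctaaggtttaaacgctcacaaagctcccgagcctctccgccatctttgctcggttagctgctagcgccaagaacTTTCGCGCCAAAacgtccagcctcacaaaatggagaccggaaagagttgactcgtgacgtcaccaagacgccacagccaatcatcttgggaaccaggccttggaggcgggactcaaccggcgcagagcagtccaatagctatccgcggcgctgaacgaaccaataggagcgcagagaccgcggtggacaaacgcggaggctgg
This motif was found in 2.82% of all genes with a promoter, in 6.29% of those at least 2-fold lower and 11.8% of the 76 at least 4-fold lower, against 1.61% of those at least 2-fold higher. It was present in 16 of 52 replication genes and 5 of 50 mitosis genes. The CCAAT box, bound by NF-Y, was found in 42.0% of all, in 35 of 50 mitosis genes, in 32 of 52 replication genes and in 17 of 18 cholesterol synthesis genes.

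The groups of cell death genes differed from each other. Of 28 genes of necroptosis, caspases and the inflammasome 9 were higher (8 counted from the background level) and 0 lower. Casp4, the receptor for LPS inside the cell known as caspase-11, read 9.42 on the control array and 12.96 on the LPS array (11.7-fold higher), Casp1 9.38 in control and 12.18 with LPS (6.96-fold higher), and Gsdmd, the pore protein they cut, 8.47 in control and 10.38 with LPS (3.76-fold higher). Mlkl, the executor of necroptosis, read 8.93 in control and 11.86 with LPS (7.63-fold higher), and its activating kinase Ripk3 9.84 in control and 9.44 with LPS, under 2-fold. Casp8, the caspase that restrains necroptosis and that zVAD inhibits, read 12.5 in control and 13.17 with LPS. Cflar, the partner that limits Casp8, read 9.02 in control and 11.62 with LPS (6.08-fold higher), and the death receptor Fas 6.3 in control and 9.22 with LPS (at least 6.71-fold higher). Of 22 targets of p53 and regulators of apoptosis, which include Cflar and Fas, 3 were higher and 3 lower, with a median of -0.09 that turned positive under centring and cyclic loess. Bcl2, which protects from apoptosis, was lower, at 10.41 in control and 8.89 with LPS (2.87-fold lower), as was the p53 target Sesn1, at 10.96 in control and 9.12 with LPS (3.58-fold lower).

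Genes that mark macrophages lay mostly under 2-fold, with 6 of 35 higher and 6 lower on the deposited scale, and 7 higher and 3 lower with centred arrays. Fcgr1, a high-affinity antibody receptor, read 11.21 in control and 13.38 with LPS (4.50-fold higher), and Siglece, an inhibitory receptor for sialic acid, 7.42 in control and 10.39 with LPS (7.85-fold higher). Cx3cr1, the fractalkine receptor, read 12.4 on the control array and 10.46 on the LPS array (3.85-fold lower), Gas6, the ligand that bridges dying cells to Mertk and Axl, 11.84 in control and 10.15 with LPS (3.23-fold lower), and Trem2, a lipid receptor, 12.73 in control and 11.67 with LPS (2.08-fold lower). The receptors of Gas6 did not follow it, Axl reading 10.27 in control and 11.96 with LPS (3.23-fold higher) and Mertk 10.19 in control and 11.1 with LPS. Of 43 myeloid transcription factors 11 were higher and 2 lower. Batf read 7.58 in control and 10.77 with LPS (9.07-fold higher) and Cebpb, a factor for acute-phase genes, 9.2 in control and 11.49 with LPS (4.91-fold higher), while Klf10 read 9.32 in control and 7.85 with LPS (2.77-fold lower) and Fli1 11.17 in control and 9.82 with LPS (2.55-fold lower). Spi1, the factor PU.1 that sets macrophage identity, read 12.06 in control and 12.74 with LPS.

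Receptors for chemoattractants went in both directions, with 6 of 18 higher (5 counted from the background level) and 2 lower. So did purinergic and metabolite receptors, with 8 of 27 higher and 4 lower. Ccr7, which guides cells to lymph nodes, read 6.79 in control and 10.67 with LPS (14.7-fold higher), and Ccrl2 7.92 in control and 12.26 with LPS (20.2-fold higher). Cxcr4, the receptor that retains cells in marrow, read 9.39 in control and 7.08 with LPS (4.97-fold lower), and Gpr183, a receptor for oxysterols, 11.09 on the control array and 8.11 on the LPS array (7.89-fold lower). Ch25h, the enzyme that starts the synthesis of its ligand, read 11.25 in control and 11.85 with LPS, under 2-fold. Hcar2, the receptor for niacin and ketone bodies, read 6.95 in control and 10.68 with LPS (13.3-fold higher), and P2ry14, a receptor for UDP-sugars, 7.1 in control and 10.33 with LPS (9.38-fold higher). Olr1, a scavenger receptor for oxidised lipoprotein, read 6.13 in control and 10.83 with LPS (at least 20.5-fold higher), and Itgb8, an integrin that frees active TGF-beta, 6.0 in control and 10.26 with LPS (at least 13.8-fold higher). Itgb5 and Itga6 were 2.92-fold lower and 3.01-fold lower. Of 17 integrins 4 were higher and 3 lower, of 27 scavenger and clearance receptors 5 and 5 (5 and 3 with centred arrays or cyclic loess), of 22 Fc and paired Ig receptors 6 and 2 (0 lower with centred arrays), and of 26 C-type lectins and Siglecs 6 and 0.

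Genes of alternative activation were higher in 8 of 23 cases (6 counted from the background level) and lower in 0. Ccl17 and Ccl22, described above, belong to this group, and Il4ra read 10.34 in control and 12.06 with LPS (3.29-fold higher), whereas Mrc1, the mannose receptor, read 12.18 in control and 11.4 with LPS and Retnla stayed below the background level. Lysosomal genes lay under 2-fold in all but 2 of 42 cases, Ctsh (2.01-fold higher) and Sgsh (3.63-fold lower), and none of 24 autophagy genes passed 2-fold. Of 30 genes of the unfolded protein and integrated stress responses 3 were higher and 2 lower, with Ddit3 at 7.93 in control and 9.33 with LPS (2.63-fold higher) and Hspa5 at 13.28 in control and 13.27 with LPS. Hspa1a, an inducible chaperone whose near copy Hspa1b may share its signal, read 7.76 in control and 12.69 with LPS (30.6-fold higher). Of 36 chromatin modifiers 3 were higher and 4 lower, but 5 and 2 with centred arrays and 6 and 2 with cyclic loess. Among them Setdb2, a histone methyltransferase, was 5.39-fold higher and Tet2, which oxidises methylated cytosine, 4.84-fold higher. Of 18 aminoacyl-tRNA synthetases 0 were higher and 1 lower, and of 15 genes of the nuclear receptor LXR and cholesterol efflux 3 were higher and 2 lower (1 higher after quantile normalization). Of 15 reference genes Actb read 14.36 in control and 14.35 with LPS and Ppia 13.65 in control and 13.57 with LPS, and 1, Tfrc, differed by 2-fold.

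Of 77 microRNA genes with a probe past the filter 2 were at least 2-fold higher and 2 lower, and those named were chosen after their values were seen. The probes do not separate the arms of the hairpin or the mature form from its precursor. Mature sequences from RefSeq (GRCm38.p6) are given for 3 of them to show that their seeds, bases 2 to 8 in capitals, differ.
miR-155-5p, chr16:84714143-84714165, plus strand: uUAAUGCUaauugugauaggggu
miR-221-3p, chrX:19146307-19146329, minus strand: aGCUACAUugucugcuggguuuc
miR-18a-5p, chr14:115043867-115043889, plus strand: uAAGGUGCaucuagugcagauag
Mir155, known to be induced by Toll-like receptors, read 5.85 in control and 9.61 with LPS, at least 8.79-fold higher. Mir221 read 6.77 and 8.41 (3.13-fold higher), and Mir18, of a cluster known to be driven by Myc, 6.89 and 5.33 (at least 1.34-fold lower). Mir18 was counted as 2-fold lower by its difference as read, and lay under 2-fold when counted from the background level.

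Markers of other cell types moved in part with the response, and their part in the results was not tested. Of 15 neutrophil markers 13 read above the background level on both arrays and 5 were higher with LPS, with a mean log2 reading of 8.0 in control and 8.85 with LPS. Lcn2, Csf3r and Mmp9 were among the 5, S100a9 read 8.8 in control and 9.91 with LPS (2.17-fold higher) and Ly6g 6.69 in control and 7.72 with LPS (2.04-fold higher). The granule genes Elane and Mpo read 9.33 in control and 9.42 with LPS and 8.83 in control and 8.7 with LPS, and Cxcr2 and Retnlg stayed below the level. Of 12 dendritic cell markers 4 were higher (Ccr7, Fscn1, Bst2 and Itgax), their mean reading being 6.5 in control and 7.37 with LPS, while Flt3, Xcr1, Clec9a and Cd209a were below the level on both arrays. Of 16 stromal and endothelial markers 4 were higher (3 counted from the background level), with means of 6.37 and 6.80. Kdr read 7.15 in control and 9.99 with LPS (7.16-fold higher) and Dcn 5.7 in control and 8.53 with LPS (at least 4.16-fold higher), and the collagens Col1a1 and Col3a1 7.84 in control and 7.44 with LPS and 7.29 in control and 6.99 with LPS. For B cells 1 of 10 markers read above the level on each array and for mast cells and basophils 2 of 11, Gata2 and the histamine-forming Hdc, which read 6.8 in control and 10.3 with LPS (11.3-fold higher). For T and NK cells 4 of 15 read above the level in control and 2 with LPS, and Cd28 read 8.22 in control and 6.11 with LPS (at least 3.37-fold lower). For erythroid cells 2 of 6 did on each array.

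Some of these genes are followed here on the other 2 arrays that received LPS, which share the control array with this comparison. Most of the 30 genes with the highest differences, and most of the 30 with the lowest, each read within 2-fold across the 3 LPS-treated arrays. Il6, Gbp5 and Mcm7 are examples. Il6 read 12.88 with LPS, 12.8 with zVAD added and 12.76 with zVAD and Nec-1 added. Gbp5 read 12.82 with LPS, 12.74 with zVAD added and 12.69 with zVAD and Nec-1 added, and Mcm7 8.32, 8.95 with zVAD added and 8.47 with zVAD and Nec-1 added. Other genes, chosen here because they differ, did not read alike where zVAD was present. Plau, 9.98-fold lower with LPS, read 13.14 with zVAD added and 10.71 with zVAD and Nec-1 added, against 12.78 in control. Ifnb1, at 6.48 with LPS, read 11.62 with zVAD added and 7.51 with zVAD and Nec-1 added. Il12b, at 12.17 with LPS, read 9.62 with zVAD added and 12 with zVAD and Nec-1 added. Rasgrp3, an activator of Ras, read 9.87 in control and 5.21 with LPS (at least 10.5-fold lower), 7.62 with zVAD added and 5.86 with zVAD and Nec-1 added. It was the lowest gene of all by difference as read. Counted from the background level, Tmem273 was lowest, at 10.2 in control and 6.77 with LPS (10.8-fold lower). Among the other genes at the low end, St6gal1, a sialyltransferase, read 10.13 in control and 6.72 with LPS (10.6-fold lower), Gcnt1, another glycosyltransferase, 10.98 in control and 7.94 with LPS (8.18-fold lower), and Hal, which degrades histidine, 11.28 in control and 8.6 with LPS (6.40-fold lower).

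**Figure D4:**
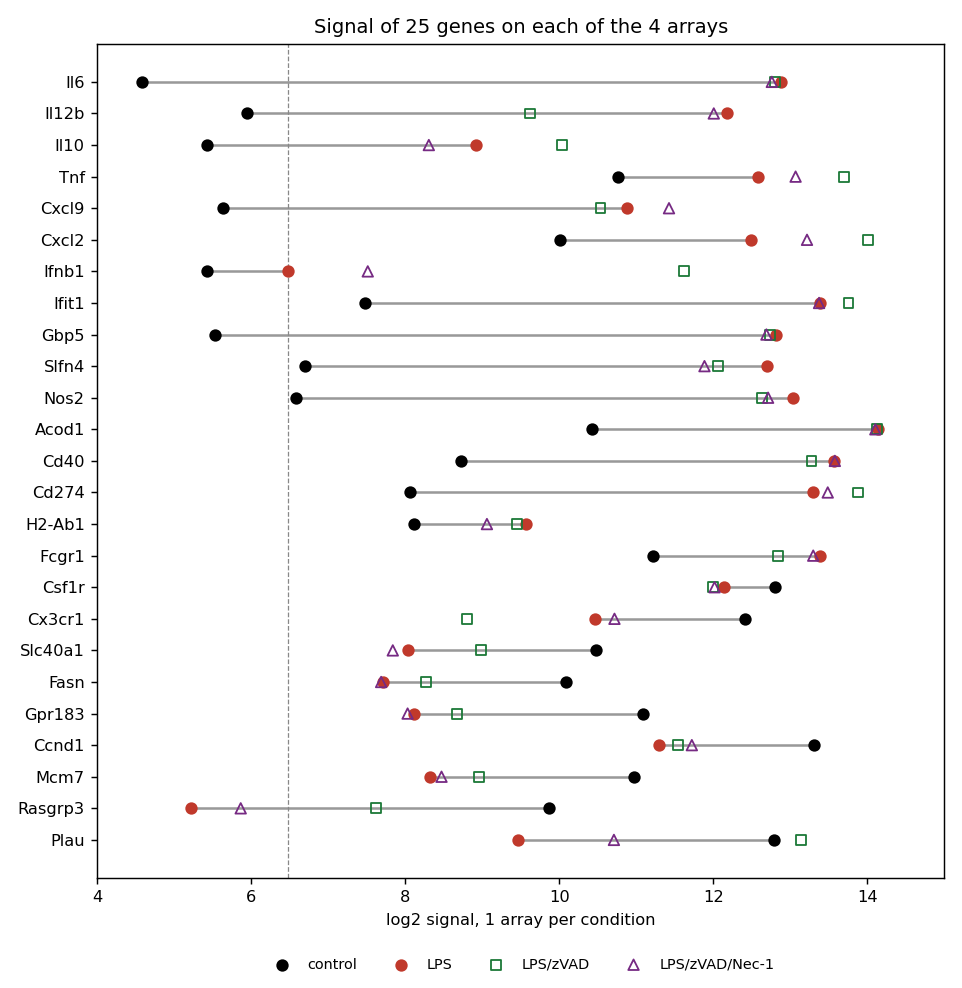
Signal of 25 genes on the 4 arrays (horizontal axis, log2, 1 array per condition). Filled circles joined by a line are control (black) and LPS (red), open squares LPS/zVAD and open triangles LPS/zVAD/Nec-1, and the dashed line is the background level of log2 6.47. Plau and Ifnb1 read higher on both other arrays than with LPS alone, whereas Il6, Gbp5 and Acod1 read nearly the same on all 3 LPS-treated arrays.

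Other probes of the same genes gave a check within the 2 arrays. The 1005 higher genes had 96 other probes in 51 genes, of which 89 differed in the same direction, 65 by at least 2-fold and 0 by 2-fold in the opposite direction. A few genes, Nlrc5 among them, held many of the 96, and some probes had identical readings, so these counts are not of independent probes. The 879 lower genes had 66 other probes in 57 genes, of which 64 differed in the same direction, 32 by at least 2-fold and 0 oppositely. Probes on one array share its RNA and its labelling, so they say nothing of the spread between preparations.

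**Figure D5:**
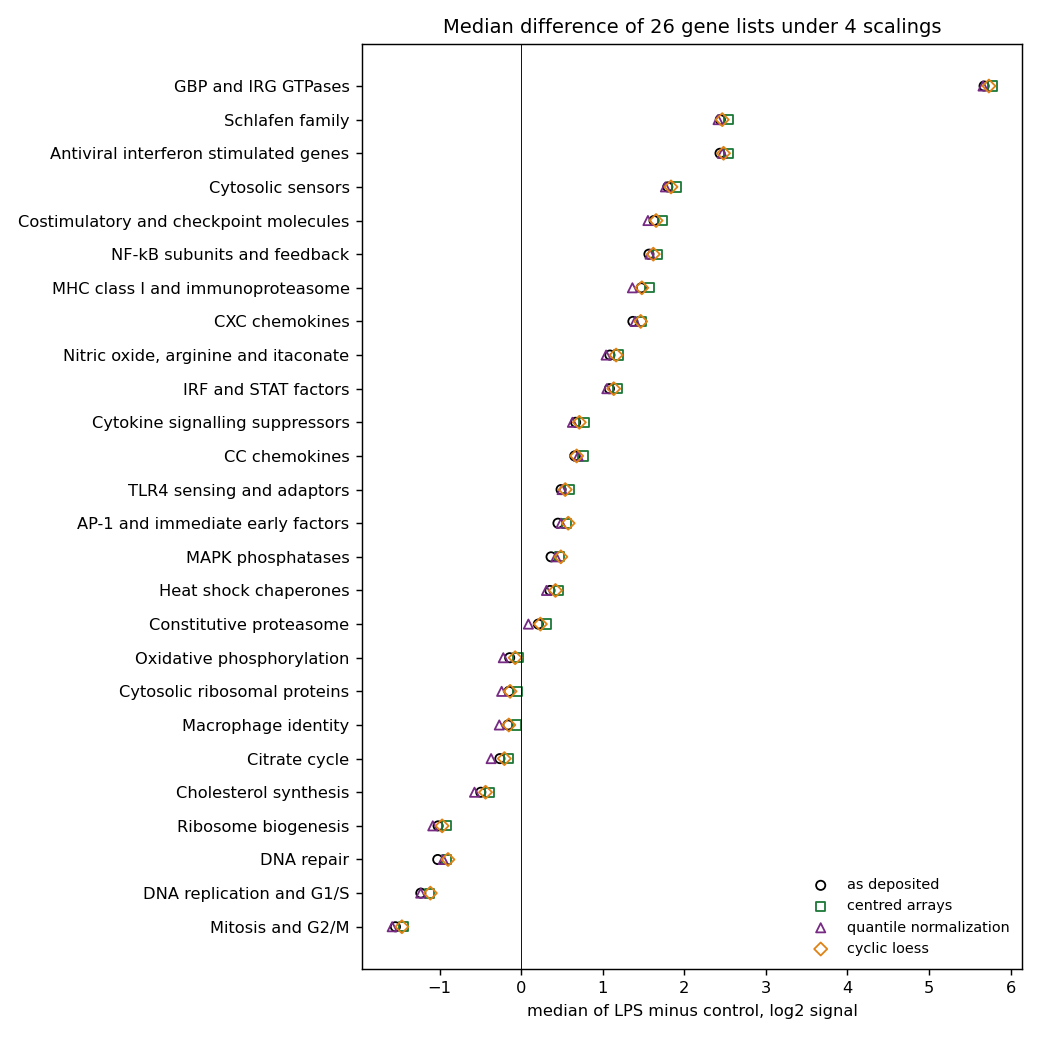
Median difference between LPS and control (horizontal axis, log2) of 26 gene groups under the deposited scale and 3 other scalings of the same values. The 4 symbols of a group lie close together, with the GTPases (5.67 as deposited) at the top and mitosis (-1.54) at the bottom under all 4.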

How the data were processed

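RNA of 4 states of bone-marrow-derived macrophages was hybridised to Affymetrix arrays, 1 per state. The authors summarised the scans to gene-level log2 signals before they deposited them, with Affymetrix Expression Console according to the submitters' processing notes. The log2 scale follows from the values, which run from 3.10 to 14.6 with array medians of 6.41 to 6.52. How background was removed and arrays were normalized is not given in the sources used, and either step can shift every difference. With 1 array per condition precision cannot be estimated, and nothing says whether the arrays came from separate cultures.

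Samples were grouped by title. Of 35556 probes, 21789 had 1 gene symbol, 1621 several and 12146 none under the platform annotation, and only the first kind was named. A gene with several probes (999 of 19938) was represented by the probe with the highest mean of the 4 arrays. Counts cover genes whose strongest signal reached the 50th percentile of all values, log2 6.47. Differences are LPS minus control. The 70 gene lists name 1710 genes, and a member absent under its own symbol was sought under an older one among the synonyms of RefSeq genes (GRCm38.p6). The rule for named genes took the 30 highest and 30 lowest differences (predicted, RIKEN, clone, olfactory and small RNA symbols left out) and any measured list member. The members and lists were chosen with earlier results of these data known. Alternatives were array centring, quantile normalization and cyclic loess (limma 3.58.1 in R 4.3.3), other filters and thresholds, the mean over probes, and signals raised to the filter level. The code that counts genes past 2-fold was checked on simulated data. Other steps used Python 3.11.15. Promoters were matched by Entrez gene identifier.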

Additional observations from a re-analysis of the deposited data

How the results depend on the processing

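With 1 array per condition no array could be left out. No paired analysis was possible because each condition has 1 array. A threshold of 1.5-fold gave 1752 genes higher and 2109 lower, and 3-fold gave 545 and 269. The 7 genes at least 8-fold lower became 4 with centred arrays and 4 with cyclic loess. The higher and lower genes at 2-fold numbered 1130 and 698 with centred arrays, 983 and 897 with quantile normalization, and 1091 and 711 with cyclic loess. Of 70 list medians, 9 changed sign under at least 1 scaling, and the largest of these was 0.1 in size on the deposited scale. The median of DNA repair crossed 2-fold under all 4 alternatives run on it, at -0.92 with centring, -0.96 with quantile normalization, -0.90 with cyclic loess and -0.98 with signals raised to the filter level, and that of ribosome biogenesis under centring and cyclic loess, at -0.92 and -0.97. Raising signals to the filter level also took the median of the nitric oxide group from 1.09 to 0.35 and that of the IRF, STAT and JAK genes from 1.08 to 0.90. A count of higher or lower members moved by over 1.5 times under at least 1 of these settings in 20 groups, in 17 of them by at most 2 genes. Of 1596 named or listed genes, 53 crossed 2-fold with centred arrays, 46 with cyclic loess, 39 with quantile normalization, 17 with signals raised to the filter level and 8 with the mean over probes, and the others kept their side. For 146 of the 1005 higher genes and 71 of the 879 lower ones the weaker reading lay under the filter level, which limits their folds.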

Other observations

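Some families were looked at after their values were seen, and most of their genes belong to no group above. Of 10 measured genes of the Ifi200 family, 9 passed the filter and were at least 2-fold higher, with a median difference of 3.93 over the 10. The family encodes DNA-binding proteins of the interferon response that are near copies of each other. Ifi208, Ifi209, Ifi213 and Ifi214 read under the background level in control. They passed the filter only through arrays that received LPS, so their passing is not separate from their being higher. Of the 10, 4 (Aim2, Ifi203, Ifi205 and Ifi207) were already counted among the cytosolic sensors. Ifi214 read 4.87 in control and 11.89 with LPS, at least 42.7-fold higher, and Ifi209 5.92 and 12.38, at least 60.1-fold higher. The 3 measured Phf11 genes were higher, Phf11a reading 7.75 and 12.40 (25.2-fold). In the Ms4a family of membrane proteins 10 of 19 genes passed the filter and 2 were higher by 2-fold. These were Ms4a4c, reading 8.06 and 13.37 (39.6-fold), and Ms4a4a, 8.81 and 12.16 (10.2-fold). Of 7 genes with a Gadd45 or Pim symbol 3 were higher and 0 lower. Gadd45b, a stress protein, read 8.48 and 12.30 (14.1-fold higher) and Pim1, a kinase induced by cytokines, 9.04 and 12.15 (8.62-fold higher). Gadd45a read 7.08 with control and 7.56 with LPS.

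Among enzymes of nucleotide synthesis 15 of 28 were lower and 0 higher, with a median of -1.08, or -0.98 with centred arrays. Dctd, which supplies the precursor of thymidylate, read 11.39 in control and 8.58 with LPS (7.01-fold lower), Ppat, the first enzyme of purine synthesis, 9.71 and 7.69 (4.06-fold lower), and Mthfd1, a folate enzyme of the cytosol, 9.83 and 7.82 (4.02-fold lower). Its mitochondrial relative Mthfd2 read 10.25 and 11.12. Of 33 histone genes 11 were lower and 0 higher. Of 16 measured exchange factors and GTPase activators of Ras, 3 were higher and 2 lower, with a median of -0.16. Rasgrp1 read 5.82 in control and 9.74 with LPS, at least 9.67-fold higher, and Rasa4, which switches Ras off, 9.13 and 11.09 (3.89-fold higher). Rasa3 read 10.76 and 8.79 (3.94-fold lower) and Rasgrp3 9.87 and 5.21 (at least 10.5-fold lower).

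Probes with no single gene symbol were left out of every count. Of 1621 probes with several symbols 865 passed the filter level, 64 of them at least 2-fold higher and 35 lower, with differences from -1.97 to 6.41. Of 12146 probes with no symbol 4978 passed, 303 higher and 216 lower, from -2.59 to 5.65.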
